A study of Homo sapiens with 6 samples.

Results

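Solute carriers are the membrane proteins, named SLC or SLCO, that move amino acids, sugars, ions, metals, organic acids, vitamins and nucleotide sugars into and out of cells and organelles. The deposited data list 2128 genes, of which 36 protein-coding genes have a symbol that starts with SLC and a digit, or with SLCO, and these 36 were taken. The gene description names the solute for 1 of them, SLCO2A1, so the others were placed in solute groups by their family number, with 3 exceptions (SLC6A8, SLC13A4 and SLC22A17) placed by the solute or ligand of the gene. The values come from RNA-seq of SNU668, an established line of gastric signet-ring carcinoma cells, with 3 libraries titled shControl and 3 titled shGPER. The shControl libraries carry the genotype label WT and the shGPER libraries the label for knockdown of GPER, the G protein-coupled estrogen receptor encoded by GPER1; no drug, dose or time is given. The labels call the controls wild type as well as shControl, and give no number of hairpins or clones. They also do not tell if the 3 libraries of a group were grown apart, so a p-value here reflects library-to-library spread that may be technical. In bulk RNA, fewer cells that express a gene and less of its RNA per cell cannot be told apart.

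Most solute carriers do not use ATP directly. They couple one solute to the gradient of another, such as sodium or protons, or exchange solutes across the membrane, and pumps maintain these gradients. In tumor cells they supply amino acids, glucose, lactate exchange, metals and precursors for glycans, and the mitochondrial family links the matrix to the cytosol. Frequently studied members such as SLC2A1, SLC7A5, SLC7A11 and SLC3A2 were not analysed here.

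The tables give TPM (a gene's length-corrected share of a library's transcripts), and the listed genes sum to 4.66 to 6.42% of the full scale. GPER1 (chromosome 7, 1082208 to 1093815, GRCh38) had 11.04, 11.00 and 10.41 TPM in control cells against 1.83, 2.41 and 2.47 TPM after knockdown (two-sided exact permutation test, p = 0.1, the smallest that 3 against 3 libraries allow). The groups did not overlap in TPM for 95.3% of all 2128 genes, so the table largely holds genes that separate them. Of 15 epithelial and gastric markers 3 were in the table, TFF1, CDX2 and CDH1. CDH1, which encodes E-cadherin, was at 0.44 to 0.71 TPM in shControl and 0.11 to 0.42 TPM in shGPER libraries and was not tested. CDX2, also not tested, went the other way, from 0.30 to 0.47 TPM in shControl to 0.82 to 1.39 TPM in shGPER libraries. TFF1 fell, with 4.44 to 6.22 TPM in shControl and 0.26 to 2.91 TPM in shGPER libraries. The keratins, mucins and EPCAM were not analysed here. Of 7 fibroblast markers 5 were listed, of which COL1A1 rose and DCN and LUM fell. The mean of COL1A1 went from 2.83 to 29.4 TPM, that of DCN from 2.73 to 1.36 and that of LUM from 2.52 to 1.20 TPM. The summed level of the 5 was 7.04 to 9.92 TPM in shControl and 31.9 to 33.3 TPM in shGPER libraries. That rise came mainly from COL1A1 alone. Of 5 endothelial markers CDH5 rose and ERG did not pass, and 0 of 5 leukocyte markers were listed.

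Promoter windows of the members were read from RefSeq (GRCh38.p14), which gave 36 windows for 30 of the 36 genes, each with 250 bases before and 50 bases after a transcription start. The first pair below is shown because the study was set up around Hippo/YAP signaling, whose coactivators bind DNA through TEAD factors, and because these members moved in opposite directions. Capitals mark the TEAD letters GGAATG on either strand; all sequences run 5′ to 3′ on the strand of the gene. SLC16A14 (chr2:230068875-230069174, minus strand) rose and SLC39A10 (chr2:195656708-195657007, plus strand) fell in shGPER cells. Another start window of SLC39A10 (chr2:195656976-195657275) holds no TEAD letters and is not printed.

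SLC16A14: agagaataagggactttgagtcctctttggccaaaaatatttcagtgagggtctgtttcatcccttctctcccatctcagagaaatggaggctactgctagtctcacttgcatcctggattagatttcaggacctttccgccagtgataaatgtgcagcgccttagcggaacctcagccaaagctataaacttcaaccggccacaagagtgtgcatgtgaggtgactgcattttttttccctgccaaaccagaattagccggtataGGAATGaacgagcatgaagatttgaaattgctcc
SLC39A10: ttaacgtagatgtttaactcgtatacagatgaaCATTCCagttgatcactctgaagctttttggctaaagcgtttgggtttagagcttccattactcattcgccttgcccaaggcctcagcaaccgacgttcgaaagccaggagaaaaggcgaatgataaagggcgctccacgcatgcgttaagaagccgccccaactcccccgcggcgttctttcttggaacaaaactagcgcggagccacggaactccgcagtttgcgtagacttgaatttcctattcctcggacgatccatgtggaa

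The TEAD letters stood in 3 of the 36 windows (SLC13A4, SLC16A14 and SLC39A10) and in 14.0% of 35116 promoter windows of the same length. The cyclic AMP response element TGACGTCA stood in 0 of the 36 windows and 1.85% of all windows, and the E-box CACGTG in 6 and 7.26%. The E-box windows belonged to SLC12A7 and SLC39A11, which rose, to SLC25A22, SLC26A2 and SLC41A2, which fell, and to SLC2A13, which was not tested. The metal response element was searched as TGCACNC, found in 7 of the 36 windows and 12.1% of all, and as TGCGCNC, found in 9 and 20.0%, on both strands. The antioxidant response element TGACNNNGC was found in 3 and 13.3%. A match describes letters in a window and is not a site of binding.

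The next pair is shown because both genes are among the members that fell most, while their start windows differ in base composition; here capitals mark CG dinucleotides. SLC27A5 (chr19:58511943-58512242, minus strand) has 2 CG dinucleotides at a GC content of 62.7%. SLC30A9 (chr4:41990280-41990579, plus strand) has 18 at 55.7%.

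SLC27A5: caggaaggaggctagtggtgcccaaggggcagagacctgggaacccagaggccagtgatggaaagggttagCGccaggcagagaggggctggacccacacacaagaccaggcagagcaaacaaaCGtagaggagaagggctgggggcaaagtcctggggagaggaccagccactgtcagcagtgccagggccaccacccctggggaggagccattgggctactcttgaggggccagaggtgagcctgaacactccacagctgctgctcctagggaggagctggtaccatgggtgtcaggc
SLC30A9: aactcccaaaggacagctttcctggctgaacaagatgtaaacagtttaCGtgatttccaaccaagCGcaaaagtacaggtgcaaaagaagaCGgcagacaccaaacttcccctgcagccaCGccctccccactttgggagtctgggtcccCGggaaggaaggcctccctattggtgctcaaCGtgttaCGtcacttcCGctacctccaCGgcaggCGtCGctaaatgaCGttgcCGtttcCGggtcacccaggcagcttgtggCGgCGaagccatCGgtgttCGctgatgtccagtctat

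Among windows of members that rose the median GC content was 68.3% (10 windows), and among windows of members that fell it was 66.0% (21 windows). The median over all 35116 windows was 58.7%. The medians for CG dinucleotides were 18 and 27, with ranges of 4 to 39 and 2 to 51.

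Log2(TPM + 1) was compared between the groups with limma across the whole table, on the genes with at least 1 TPM in at least 3 libraries, at an adjusted p under 0.05. Of the 36 solute carrier genes 29 were tested. In shGPER cells 10 of them rose, 18 fell and 1, SLC37A3, did not pass. Over all 1651 tested genes 98.4% were called, 47.8% higher and 50.6% lower, against 34.5% and 62.1% of the tested solute carriers. That nearly every member was called is therefore not a result about the members. The median log2 change was -0.89 over the 29 and -0.49 over all tested genes, and the median size was 1.04 and 1.05.

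A log2 change of at least 1, a 2-fold change on this scale, was reached by 4 members that rose and 13 that fell. That is 13.8% and 44.8% of the tested members, against 32.0% and 24.2% of all tested genes. The balance depends on the scaling: after each library was centred on its median, which moved log2 changes up by 0.15, it was 7 members and 7, with 39.6% and 16.3% of all tested genes. By adjusted p alone the centred values gave the same 10 and 18 members, with 97.6% of all tested genes called, 48.0% higher and 49.5% lower. Of the 29 tested members, 5 were under 1 TPM in every library of a group and were kept by the other group alone. They are SLC8A2 and SLC23A3, which rose, and SLC12A3, SLC41A2 and SLCO2A1, which fell, and their direction was fixed by that filter. Without them 8 rose and 15 fell. Over all 1651 tested genes the filter fixed the direction of 215, and without those 624 rose and 786 fell.

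Summed over the 36 genes, solute carriers held 407.7 to 419.2 TPM in shControl libraries and 299.1 to 328.3 TPM in shGPER libraries. As a share of all listed TPM this was 0.647 to 0.678% and 0.642 to 0.668%, so the shares overlapped between the groups. The composition moved more than the share. SLC16A1 and SLC27A5 made up 29.7 to 32.5% of the summed solute carrier TPM in shControl and 7.63 to 10.4% in shGPER libraries. SLC6A8 and SLC12A7 together went from 14.4 to 16.2% to 39.2 to 43.3%. These pairs are the most abundant members by mean in shControl and in shGPER libraries, so they were picked from the same values. The table largely holds genes that separate the groups, and other gene sets were not compared. The shift in these shares is therefore no result particular to solute carriers.

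**Figure D1:**
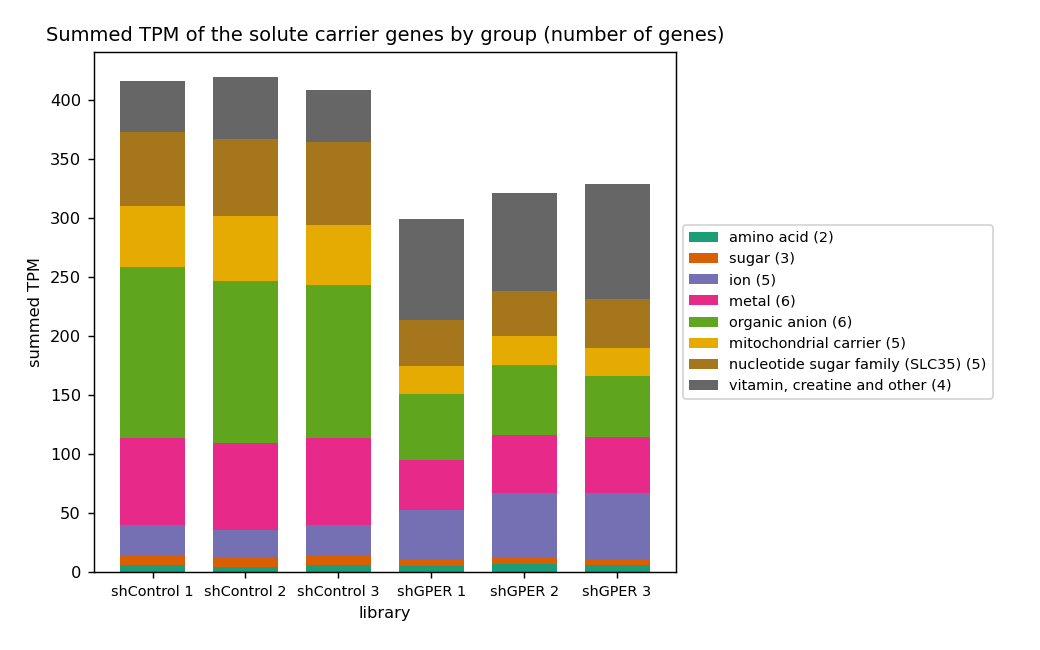
Summed TPM (y axis) of the 36 solute carrier genes in each of the 6 libraries (x axis), stacked by solute group, with the number of genes in the legend. The totals run from 407.7 to 419.2 in shControl and from 299.1 to 328.3 in shGPER; the organic anion part is smaller and the vitamin, creatine and other part larger in every shGPER library.

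The organic anion group held the largest summed level in shControl cells. Of its 6 members 4 were tested, of which 3 fell and 1 rose, where 50.6% of all tested genes fell and 47.8% rose. The summed TPM of the group was 129.2 to 145.2 in shControl and 51.6 to 59.5 in shGPER libraries. The ranking rests in part on SLC27A5, an enzyme placed here by its family number, which supplied 57.5 to 62.8 TPM in shControl libraries. The metal group held 73.5 to 73.7 TPM there. SLC16A1 (chromosome 1, 112911847 to 112957013), the monocarboxylate transporter MCT1 that carries lactate and pyruvate with a proton, was at 72.16, 68.60 and 60.78 TPM in shControl and at 15.68, 16.64 and 14.93 TPM in shGPER libraries. All shGPER values lay far below the lowest control value. The log2 change was -2.02 (SE 0.08; limma, adjusted p = 2.46e-07), with 23.4% of the control mean left.

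SLC16A14 (chromosome 2, 230034974 to 230068999), a monocarboxylate transporter family member whose substrate is not well established, went the other way. It was at 8.36, 7.78 and 5.91 TPM in shControl and 22.91, 25.78 and 23.80 TPM in shGPER libraries, with no overlap. Its log2 change was 1.60 (SE 0.12; limma, adjusted p = 3.69e-06), with control and knockdown averages of 7.35 ± 1.28 and 24.2 ± 1.47 TPM (SD, n = 3 each). The level of SLC16A14 in shGPER cells was thus above that of SLC16A1 in the same cells, with TPM compared per length. The third listed gene of the family, SLC16A8 (MCT3), reached 0.05 to 0.15 TPM in shControl and 0.38 to 0.86 TPM in shGPER libraries and was not tested.

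SLC27A5 (chromosome 19, 58479512 to 58512413), an enzyme of the fatty acid transport family known in liver for joining bile acids to coenzyme A, was at 62.82, 57.52 and 60.27 TPM in shControl libraries. In shGPER libraries it was at 15.30, 14.56 and 10.12 TPM, the last value being the lowest. It fell by 2.11 on the log2 scale (SE 0.14; limma, adjusted p = 1.80e-06). SLC27A5 overlaps ZNF446 on the opposite strand, with which it shares 13.0% of its 31-nt words, and the use of strand in the counting is not stated. SLCO2A1, the prostaglandin transporter, went from 1.20, 2.07 and 1.70 TPM to 0.67, 0.42 and 0.67 TPM. SLC13A3, a sodium-coupled dicarboxylate transporter, reached 0.44 to 0.56 and 0.97 to 1.70 TPM and was not tested. The calls of SLC16A1, SLC16A14 and SLC27A5 held when the GC trend described below was removed; that of SLCO2A1 did too, but its direction was fixed by the filter.

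Of 5 tested metal transporters 4 fell and 1 rose in shGPER cells, where 50.6% of all tested genes fell and 47.8% rose. The direction of SLC41A2, which fell, was fixed by the filter. Without the GC trend described below 2 of the 5 were called lower and 1 higher. Zinc transporters form 2 families. As a general rule SLC30 proteins (ZnT) move zinc out of the cytosol and SLC39 proteins (ZIP) move it in. Single members can differ from this rule, and transport was not measured. Members of both families fell. SLC30A9 (chromosome 4, 41990472 to 42090457), the zinc transporter ZnT9 of mitochondria, was at 24.25, 22.11 and 22.13 TPM in shControl and 3.28, 3.36 and 3.97 TPM in shGPER libraries. Its log2 change of -2.40 (SE 0.09; limma, adjusted p = 2.41e-07) was the lowest of all members and the 13th lowest among the 1651 tested genes, and 15.5% of the control mean was left.

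SLC39A10 (chromosome 2, 195575977 to 195737702), the plasma membrane zinc importer ZIP10, went from 15.63, 15.11 and 17.28 TPM to 3.40, 5.75 and 4.35 TPM. Its log2 change was -1.65 (SE 0.15; limma, adjusted p = 1.18e-05). The shGPER libraries spread more for this gene than for SLC30A9, yet each stayed below the controls. SLC30A6, the Golgi zinc transporter ZnT6, went from 12.03, 13.78 and 12.49 TPM to 5.28, 6.10 and 5.76 TPM, a log2 change of -1.04. SLC41A2, a magnesium transporter, went from 1.78, 2.14 and 2.14 TPM to 0.41, 0.52 and 0.53 TPM.

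SLC39A11 (chromosome 17, 72645949 to 73092712), the zinc importer ZIP11, was the metal transporter that rose. It was at 19.77, 20.47 and 19.69 TPM in shControl and at 30.05, 33.61 and 32.82 TPM in shGPER libraries (log2 change 0.66, SE 0.07; limma, adjusted p = 2.02e-05). Its shControl values lay within 1 TPM of each other. SLC30A2, a vesicular zinc transporter, was listed at 0 in all shControl libraries and at 0.11 to 0.18 TPM in shGPER libraries. When the GC trend was removed, SLC30A6 and SLC41A2 lost their call (adjusted p = 0.287 and 0.217), and SLC30A9 and SLC39A10 were at -1.47 and -0.73, both still called.

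Ion transporters split evenly, with 2 that rose and 2 that fell among 4 tested of 5, near the shares over all tested genes (47.8% and 50.6%). SLC12A7 (chromosome 5, 1050376 to 1112035), the potassium chloride cotransporter KCC4, which acts in cell volume control, was at 18.23, 17.46 and 17.65 TPM in shControl and 36.86, 47.97 and 50.55 TPM in shGPER libraries. The log2 change was 1.28 (SE 0.11; limma, adjusted p = 8.91e-06). Its shGPER values differed among themselves by more than the shControl values, and did not overlap with them. The sodium chloride cotransporter gene SLC12A3, the target of thiazides in the kidney, went from 2.23, 1.62 and 2.32 TPM to 0.23, 0.46 and 0.24 TPM. Its direction was fixed by the filter.

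SLC8A2 (chromosome 19, 47428017 to 47472168), the sodium calcium exchanger NCX2 known mainly from brain, was at 0.06, 0.01 and 0.11 TPM in shControl and 2.42, 3.96 and 3.17 TPM in shGPER libraries. Its log2 change of 1.97 (SE 0.15; limma, adjusted p = 3.68e-06) is set in large part by the pseudocount, and was 2.70 with 0.5 and 4.38 with 0.1. No fold is given, since the control values are close to 0, and its direction was fixed by the filter. In the same libraries the neuroendocrine markers CHGB, SYP, SCG2 and SCG3, 4 of a list of 8, were all called higher, with a summed level of 6.82 to 7.41 TPM in shControl and 64.2 to 65.3 TPM in shGPER libraries. The filter fixed the direction of 2 of these 4. Their part in this result was not tested.

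SLC26A2, a sulfate transporter, went from 5.20, 4.68 and 5.05 TPM to 2.26, 2.43 and 2.17 TPM. Its log2 change of -0.86 (limma, adjusted p = 4.24e-05) became 0.06 without the GC trend and was not called (adjusted p = 0.583). SLC13A4, a sodium-coupled sulfate transporter, was at 0.08 to 0.16 and 0.15 to 0.57 TPM, overlapped between the groups and was not tested.

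Mitochondrial carriers are the SLC25 family of the inner membrane. Of 4 tested members of 5, 3 fell and 1 rose, where 50.6% of all tested genes fell and 47.8% rose. The summed level of the carriers was 51.4 to 54.9 TPM in shControl and 23.2 to 24.5 TPM in shGPER libraries. SLC25A22 (chromosome 11, 790475 to 798333), a glutamate carrier, was at 25.08, 28.94 and 28.28 TPM in shControl and 8.89, 8.58 and 8.60 TPM in shGPER libraries. The shGPER values lay close together, with means of 27.4 ± 2.06 and 8.69 ± 0.173 TPM (SD, n = 3 each) and a log2 change of -1.55 (SE 0.08; limma, adjusted p = 5.61e-07). SLC25A22 shares 8.84% of its 31-nt words with PANO1 on the opposite strand.

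SLC25A15, the ornithine carrier that serves the urea cycle, went from 15.40, 14.30 and 14.03 TPM to 6.53, 6.67 and 6.00 TPM (log2 change -1.07). SLC25A20, which brings acylcarnitines into the matrix for fatty acid oxidation, went from 8.60, 9.36 and 7.87 TPM to 4.11, 3.88 and 4.55 TPM (log2 change -0.89). The substrates of these carriers differ, being glutamate, ornithine and acylcarnitines. SLC25A42, a carrier of coenzyme A, rose from 2.26, 2.26 and 1.08 TPM to 3.75, 5.02 and 3.72 TPM, with the widest SE of the tested members (log2 change 0.87, SE 0.20; limma, adjusted p = 0.00254). Without the GC trend the 3 that fell stayed lower, at -2.60, -1.29 and -0.69, and SLC25A42 lost its call (0.00, adjusted p = 0.987). The untested SLC25A34 was at 0.02 to 0.23 and 0.34 to 0.46 TPM.

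The SLC35 family holds nucleotide sugar transporters of the Golgi and endoplasmic reticulum, which supply the donors for glycan synthesis, along with members of other or unknown function. All 5 members were tested, and 4 fell and 1 rose, where 50.6% of all tested genes fell and 47.8% rose. SLC35F2, a plasma membrane member known as an importer of a cytotoxic drug, was at 17.43, 18.95 and 17.95 TPM in shControl and 6.57, 5.28 and 7.09 TPM in shGPER libraries (log2 change -1.39, SE 0.11; limma, adjusted p = 4.29e-06). It changed most among the 5.

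SLC35G2, of unknown substrate, was the most abundant of the family in both groups, at 23.80, 25.53 and 28.36 TPM in shControl and 14.45, 12.52 and 13.61 TPM in shGPER libraries (log2 change -0.89). SLC35B4, a transporter of UDP-xylose and UDP-N-acetylglucosamine, went from 9.58, 8.32 and 9.99 TPM to 2.97, 4.91 and 4.16 TPM (log2 change -1.05). SLC35A1, the CMP-sialic acid transporter needed for sialylation, went from 7.19, 8.49 and 9.03 TPM to 4.21, 4.64 and 4.51 TPM (log2 change -0.76). For SLC35A1 the level is uncertain, since 50.5% of its 31-nt words also occur in the transcripts of the annotated gene AL049697.1 on the same strand.

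SLC35E4, of unknown substrate, rose from 4.46, 4.50 and 4.67 TPM to 10.77, 10.24 and 12.53 TPM (log2 change 1.13, SE 0.10; limma, adjusted p = 8.61e-06). It shares 26.8% of its words with DUSP18 on the opposite strand. Without the GC trend SLC35F2, SLC35B4 and SLC35G2 stayed lower, at -1.05, -0.62 and -0.33. The calls of SLC35A1 (0.17, adjusted p = 0.154) and SLC35E4 (0.16, adjusted p = 0.139) were lost.

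The amino acid group had 2 members, both of the sodium-coupled SLC6 family, and these went in opposite directions. SLC6A14, a transporter of neutral and cationic amino acids that is found in epithelial tumors, went from 2.28, 2.54 and 3.72 TPM to 0.70, 1.01 and 0.86 TPM (log2 change -1.04, SE 0.16; limma, adjusted p = 0.000224). SLC6A12, the betaine and GABA transporter that responds to osmotic stress, went from 3.35, 2.00 and 2.40 TPM to 4.31, 5.94 and 5.32 TPM (log2 change 0.80, SE 0.17; limma, adjusted p = 0.00152). Neither call held without the GC trend (adjusted p = 0.481 and 0.138).

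In the sugar group 1 of 2 tested members fell and the other did not pass. SLC5A3, the sodium-coupled importer of the osmolyte myo-inositol, went from 5.94, 5.74 and 5.67 TPM to 2.29, 2.30 and 1.99 TPM (log2 change -1.09, SE 0.10; limma, adjusted p = 1.02e-05). It lost its call without the GC trend (-0.17, adjusted p = 0.124). SLC37A3, of the sugar phosphate exchanger family, was at 2.22, 1.69 and 2.72 TPM in shControl and 2.25, 1.71 and 2.23 TPM in shGPER libraries. It was the tested member whose groups overlapped (log2 change -0.06, SE 0.15; limma, adjusted p = 0.697), and it was called higher without the GC trend (0.47, adjusted p = 0.026). SLC2A13, the proton-coupled myo-inositol transporter of the glucose transporter family, was at 0.05 to 0.15 and 0.41 to 0.52 TPM and was not tested.

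The last group takes vitamins, creatine and other solutes, and all 3 tested members of 4 rose, against 47.8% of all tested genes. This count rests on the placement of the genes: by family number SLC6A8 would stand with the amino acid transporters and SLC22A17 with the organic anion transporters, and the direction of the third, SLC23A3, was fixed by the filter. SLC6A8 (chromosome X, 153688099 to 153696593), the creatine transporter, was at 41.49, 50.60 and 42.05 TPM in shControl and 80.25, 78.67 and 91.53 TPM in shGPER libraries. It was the most abundant solute carrier of the table in shGPER cells (log2 change 0.89, SE 0.09; limma, adjusted p = 2.53e-05). Its words are shared with the pseudogene SLC6A10P (16.5%) and with AC133561.1 (11.6%), so reads may be split between them. SLC22A17, a receptor for the iron-carrying protein lipocalin-2, went from 1.17, 1.29 and 1.12 TPM to 3.15, 2.74 and 3.15 TPM. SLC23A3, an orphan member of the vitamin C transporter family, went from 0.29, 0.33 and 0.22 TPM to 1.25, 1.12 and 1.36 TPM. It shares 42.3% of its words with AC068946.1, and its level is uncertain for that reason. SLC52A1, a riboflavin transporter, was at 0.17 to 0.28 and 0.89 to 0.96 TPM and was not tested. None of the 3 calls held without the GC trend, where SLC6A8 was at -0.05, SLC22A17 at -0.18 and SLC23A3 at 0.00 (limma, adjusted p = 0.666, 0.207 and 0.970).

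**Figure D2:**
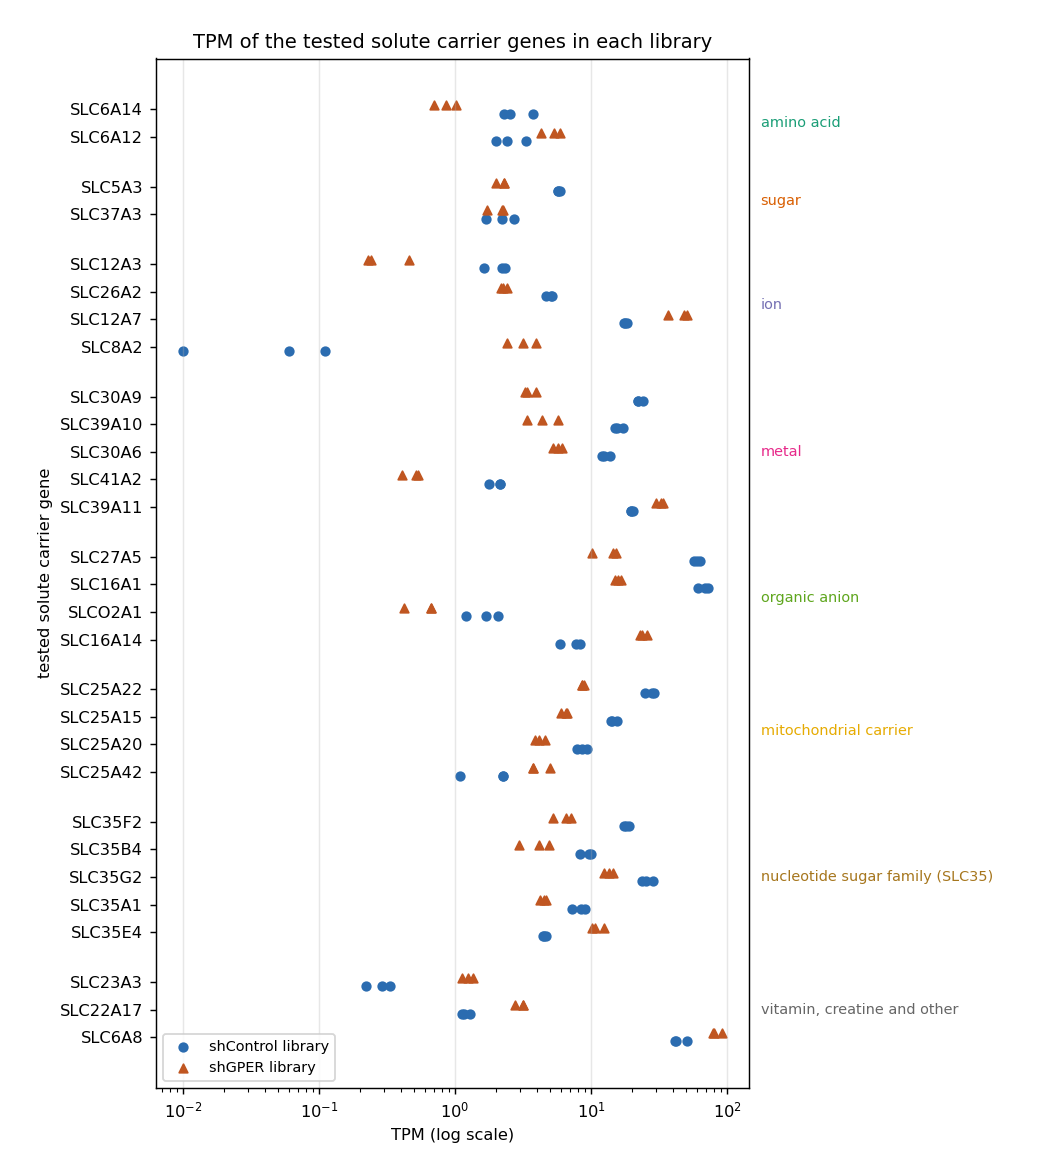
TPM on a log axis (x) for the 29 tested solute carrier genes (y, by solute group) in each shControl library (circles) and each shGPER library (triangles). The groups are apart for 28 of the 29 genes (97.4% of all tested genes are apart), and SLC37A3 is the exception.

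Of 7 families with at least 2 tested members, 6 held calls in both directions, namely SLC6, SLC12, SLC16, SLC25, SLC35 and SLC39; both tested SLC30 members fell. Over all tested genes 47.8% rose and 50.6% fell, so calls in both directions are not particular to these families. Without the GC trend 3 families held calls in both directions, SLC12, SLC16 and SLC39, and for SLC12 the direction of SLC12A3 was fixed by the filter. Members that fell had a median of 11.0 TPM in shControl and 4.32 TPM in shGPER cells, and members that rose had 3.56 and 8.19 TPM. Of the 14 members that averaged 10 TPM or more in either group, 9 fell and 5 rose, close to the split of 18 and 10 over all called members. The libraries of a group differed little, with a median coefficient of variation of 8.67% in shControl and 10.7% in shGPER libraries over the 29 genes.

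By the annotation terms of the deposited table, 23 members were assigned to the plasma membrane, of which 18 were tested and 7 rose and 11 fell. Of the 6 with a Golgi term 2 rose and 4 fell. Both splits are close to the 34.5% and 62.1% of all tested members, and without the GC trend they were 4 and 6 and 1 and 2. All 4 with an endoplasmic reticulum term were tested. SLC27A5, SLC30A9 and SLC35B4 fell and SLC37A3 did not pass. Without the GC trend 3 were called lower and 1, SLC37A3, higher. With 4 genes this split cannot be set apart from the 62.1% of tested members that fell. A gene can carry several terms.

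The direction of the members went with the base composition of their transcripts, as in the table as a whole. GC content here is the median over a gene's annotated transcripts. The rank correlation (Spearman) of GC content with the log2 change was 0.52 over the 29 tested members and 0.59 over 1626 tested genes; genes share libraries and are not replicates. Members that rose had GC contents of 53.9 to 64.0% with a median of 60.7%, and members that fell had 38.3 to 64.2% with a median of 45.8%. The members that fell thus spanned the whole range, whereas no member under 53.9% rose. Against this trend stood SLC25A22, which fell at a GC content of 64.2%, SLC27A5 at 59.8%, SLCO2A1 at 56.3% and SLC12A3 at 55.3%.

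**Figure D3:**
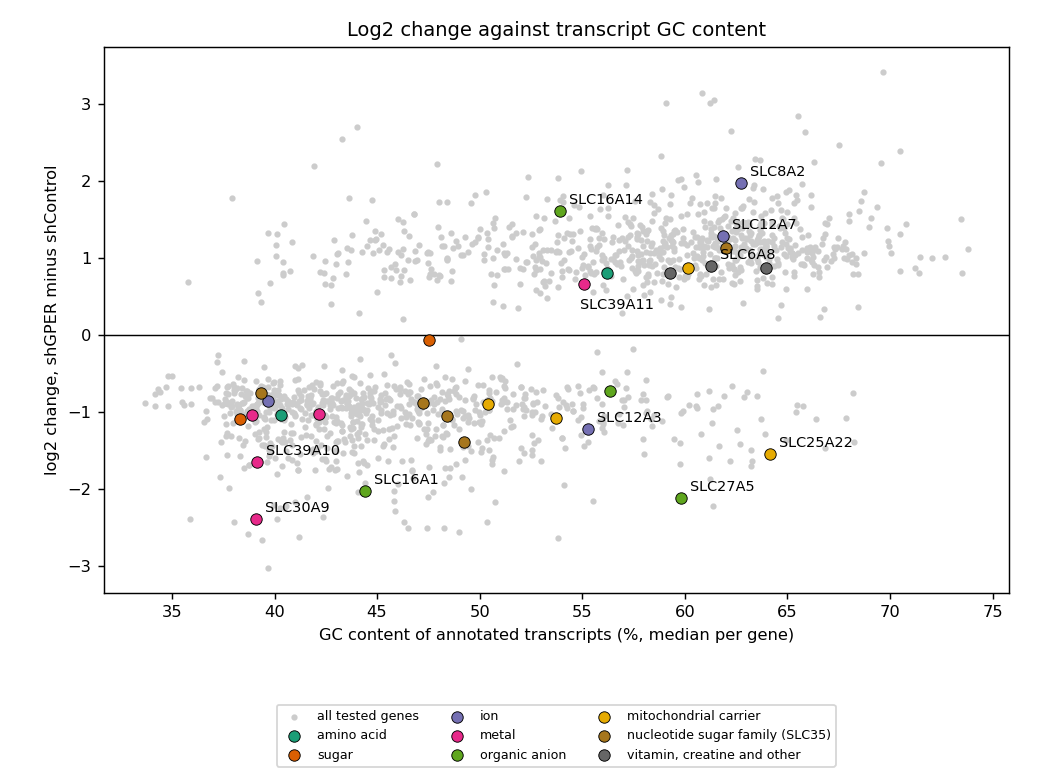
Log2 change (y, shGPER minus shControl on log2(TPM + 1)) against transcript GC content in percent (x) for all tested genes (grey) and the 29 tested solute carrier genes (colored by group). Members that rose lie at 53.9% or above, while SLC25A22 and SLC27A5 fell at 64.2 and 59.8%.

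As an alternative the trend of each library with GC content was removed with a spline. Then 5 of the 29 tested members were called higher and 12 lower. Of 1626 tested genes it was 512 (31.5%) and 506 (31.1%), or 62.6% in either direction. By 2-fold it was 1 and 8 of the 29 members, against 191 (11.7%) and 197 (12.1%) of those genes. The 4 that rose in both fits were SLC16A14, SLC8A2, SLC12A7 and SLC39A11, and SLC37A3 was added. Their log2 changes were smaller without the trend: SLC16A14 went from 1.60 to 1.36, SLC8A2 from 1.97 to 0.96, SLC12A7 from 1.28 to 0.32 and SLC39A11 from 0.66 to 0.27. All 12 called lower were also lower in the first fit. Only the selected genes of the table entered the spline, so it can absorb part of the group difference as well, and a lost call is no sign of a stable level. The members with the lowest log2 change in that fit were SLC27A5 (-2.96), SLC25A22 (-2.60), SLC12A3 (-1.63) and SLC30A9 (-1.47).

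**Figure D4:**
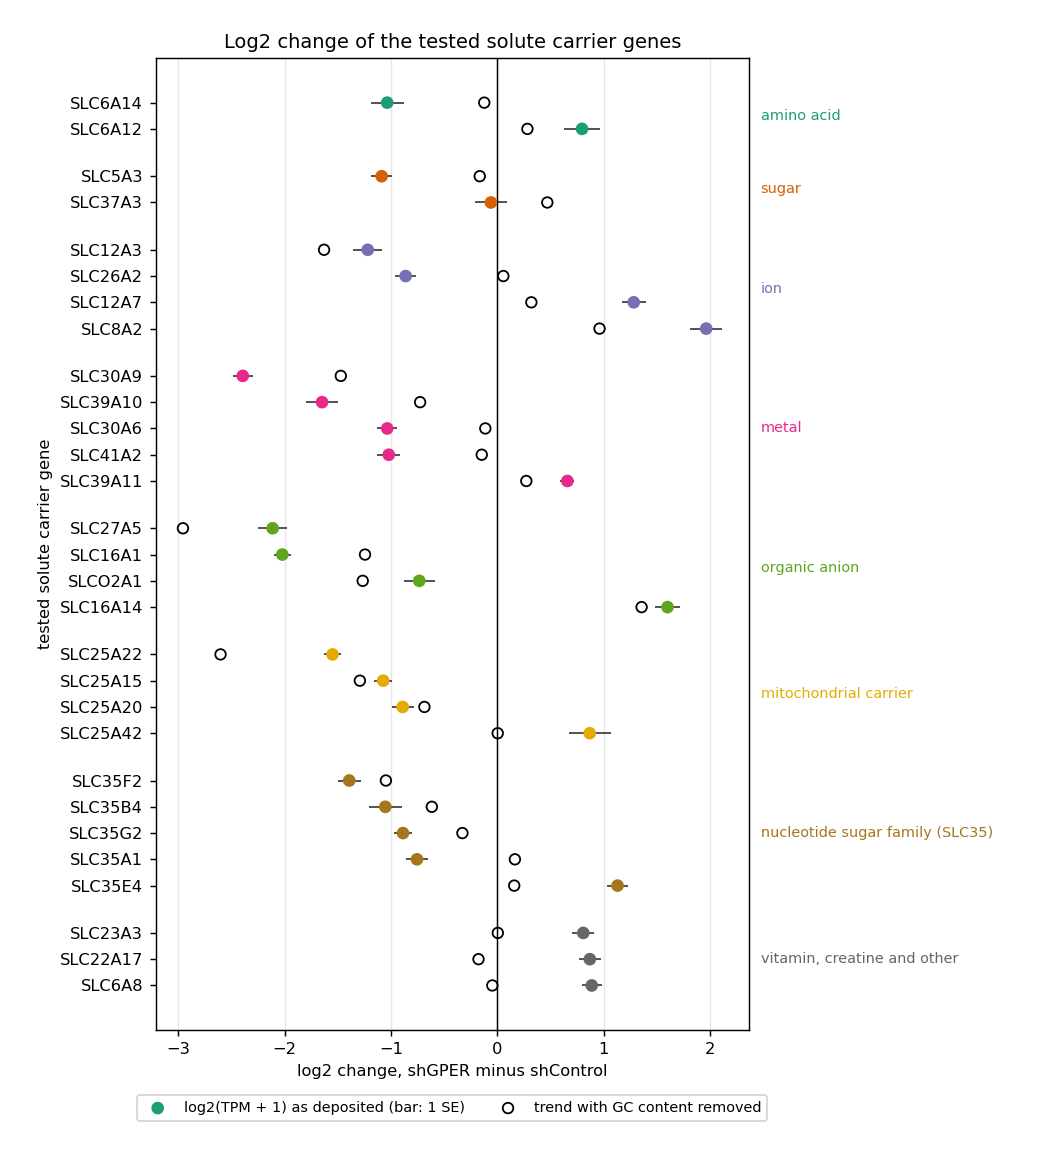
Log2 change, shGPER minus shControl (x), of the 29 tested solute carrier genes (y, by solute group): filled points with bars of 1 SE from the values as deposited, open circles after removal of the trend with GC content. SLC16A14 stays at 1.36 and SLC16A1 at -1.24, while SLC6A8 moves from 0.89 to -0.05.

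Other transporters and genes tied to solute carriers were few in the table and also went both ways. Of 4 tested ABC transporters 2 rose and 2 fell. The filter fixed the direction of 1 of the 2 that rose, and that 1 was not called without the GC trend (limma, adjusted p = 0.504). ABCB10, a transporter of the inner mitochondrial membrane, fell from 9.24 to 3.36 TPM. Among P-type ATPases and V-ATPase subunits 2 of 4 rose and 2 fell. ATP6V1D, a subunit of the proton pump that acidifies lysosomes, fell from 53.5 to 12.8 TPM, and ATP11B, a lipid flippase, fell from 17.8 to 6.80 TPM. No aquaporin was analysed here.

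Of 23 chaperones and regulators of solute carriers 3 were listed and called. WNK4, a kinase that controls cation chloride cotransporters such as SLC12A3, went from 0.843 to 3.47 TPM, and CAB39L, of a family of scaffolds of the STK39 kinase, from 1.31 to 3.05 TPM. SGK3, a kinase that raises the surface level of several transporters, fell from 6.41 to 2.84 TPM. Of 32 genes of nutrient sensing at the lysosome 3 were listed. MTOR, the growth kinase fed by amino acid transport, fell from 25.8 to 13.7 TPM, its activator RHEB fell from 50.9 to 22.3 TPM, and CASTOR2, a relative of the arginine sensor, rose from 1.56 to 3.72 TPM. Of 3 transporters with other symbols, MFSD12, needed for cystine import into lysosomes, rose from 55.6 to 138 TPM, and MFSD6 and MFSD8 fell. Without the GC trend SGK3, WNK4, CASTOR2 and MFSD6 lost their call, and MFSD8 was called higher (0.38, adjusted p = 0.0169).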

How the data were processed

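RNA-seq libraries of SNU668 cells, 3 shControl and 3 shGPER, were grouped by their titles. A stranded mRNA kit was used on total RNA, per the labels' protocols. The authors deposited TPM for each gene. Per the submitters' processing notes, RSEM, HISAT2 and fastp were used with hg38, and neither their versions nor their order is stated. TPM keep no read depth, so no counting error is given, and a change in abundant transcripts shifts all others. The rule that selected the 2128 listed genes is not known here, so the tests are not independent evidence of a difference.

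The test was limma 3.58.1 (R 4.3.3) with an intensity trend and no covariate, run on log2(TPM + 1) of the 1651 genes with at least 1 TPM in at least 3 libraries; two-sided p-values were adjusted over all of them by Benjamini-Hochberg, with a threshold of 0.05. The fit was tested on simulated data in which most genes were left unchanged, so that test is no check of the calls here. A fold change on this scale understates that of low genes.

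Members, lists and alternatives were chosen with earlier results of these data known. Solute groups follow the family number, except that SLC6A8 was placed by its solute, creatine, and SLC13A4 and SLC22A17 were moved to other groups than their family's after their values were seen. Each group gives the values of up to 4 tested members with the largest absolute log2 change and its most abundant one, together with the 10 members that rose and the 10 that fell most; the remaining tested members and the ranges of the untested ones were added outside that rule. From each other list up to 3 genes are named by smallest p. Some genes that this rule names are not reported here. Positions and transcript GC content come from GENCODE 29 (GRCh38), in which all 36 members were found, and start windows from RefSeq. To remove the GC trend, a natural spline (3 degrees of freedom) in GC content was subtracted from every library, taken from its differences to the gene averages. Word sharing counts the 31-nt words of a member's transcripts that occur in another gene's. Other steps ran in Python 3.11.15 with scipy 1.17.1 and pandas 2.3.3.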

Additional observations from a re-analysis of the deposited data

How the results depend on the processing

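The counts of 10 solute carriers that rose and 18 that fell were the same with pseudocounts of 0.1 and 0.5, median centring, no intensity trend, a robust prior and without any 1 library; with quantile normalization they were 10 and 19, with SLC37A3 called lower. No filter gave 16 that rose and 18 that fell, a filter of 5 TPM gave 5 and 13, and removal of the GC trend 5 and 12. Over all genes the number that rose moved the same way in these settings. There 789 rose and 836 fell in the main fit, 1128 and 915 with no filter, and 438 and 675 with a filter of 5 TPM. It was 512 and 506 after removal of the GC trend. That removal turned the sign of SLC26A2 (0.0569), SLC35A1 (0.17), SLC22A17 (-0.18) and SLC6A8 (-0.0469) and ended 8 further calls; the cause was not tested. Deviations of samples with the same number had correlations of 0.03, -0.09 and 0.01, and those with different numbers -0.08 to 0.07. Whether a number stands for a shared batch or culture cannot be told from these values. The replicate block gave 10 and 18, and over all genes 790 and 832. The depth of the libraries is unknown, and TPM under 1 rest on few reads of unknown number.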

Other observations

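The table also lists SLC7A11-AS1, a long non-coding RNA antisense to the cystine transporter gene SLC7A11, which the choice of protein-coding genes left out. It was at 1.75, 2.75 and 0.34 TPM in shControl and 2.73, 0.26 and 0.21 TPM in shGPER libraries, so the groups overlapped and the libraries of each group differed widely (log2 change -0.43, SE 0.50; limma, adjusted p = 0.418).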
